A study of Mus musculus with 6 samples.

Results

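The cathepsins are the proteases of the lysosome, and the vacuolar proton pump, or V-ATPase, is the enzyme that acidifies it. The genes described here are the rows of a mouse count table named as a cathepsin (Cts followed by a single letter) or as a subunit of the V-ATPase (names starting with Atp6v0 or Atp6v1) with at least 60 reads summed over 6 libraries. Of 36 rows with such names, 29 met the minimum, 12 of 15 cathepsins and 17 of 21 V-ATPase rows, out of 17191 genes in the table. All 29 also passed the filter on low counts of the test, which kept 12721 genes. The rule uses the name and the number of reads, not the difference between the groups.

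The libraries came from cells of subcutaneous tumours of CT26, a mouse colorectal carcinoma line, in female BALB/c mice aged 6 to 8 weeks. One group received TP-18, a compound known only by its code name, as a daily oral dose of 50 mg/kg over 3 weeks, and the other received a vehicle whose composition the labels do not give. Both groups carried the same tumour line, both were randomised once tumours measured 100 to 200 mm3, and there were 3 libraries per group. The labels disagree on the cells: flow-sorted CD11b+F4/80+CD206+ macrophages in the series design, CD11b+ cells taken on magnetic beads in the treatment protocol, and the CT26 line in the sample characteristics. Nothing says whether a library is a single mouse or a pool, so the p-values reflect only how far these libraries differ, which may be technical.

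Total counts ran from 17135001 to 17597645 in the TP-18 libraries and from 16371128 to 17004480 in the vehicle libraries, and scaling factors from the trimmed mean of M values (TMM) ran from 1.05 to 1.07 in TP-18 and from 0.924 to 0.962 in vehicle. Levels are given as CPM, read counts relative to the TMM-scaled library size, for comparing libraries, and as the deposited FPKM, which divide by gene length but use library totals, for comparing genes. The markers of the flow sort were present throughout. Itgam, which encodes CD11b, had 815.5 to 1019 CPM in TP-18 and 803 to 1319 CPM in vehicle libraries, Mrc1, which encodes CD206, had 629.6 to 898 CPM in TP-18 and 721 to 1452 CPM in vehicle, and Adgre1, which encodes F4/80, had 108 to 257 CPM in TP-18 and 99.9 to 295 CPM in vehicle. In bulk RNA, fewer cells of a type and less RNA per cell cannot be told apart.

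The V-ATPase has a cytosolic sector, V1, that hydrolyses ATP, and a membrane sector, V0, through which protons enter the lysosome. The acid pH activates the cathepsins, which are made as inactive precursors and digest endocytosed protein, and in macrophages and dendritic cells they also process antigens for MHC class II molecules. In human cells, genes of both groups carry a promoter element, the CLEAR element, read by transcription factors of the MiT/TFE family such as TFEB. Its core contains an E-box.

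To show where those letters stand in the mouse genes, the RefSeq promoter windows (build GRCm38.p6, 250 bases before to 50 bases after the start) were searched on both strands. Windows were present for 20 of the 29 members, 9 cathepsins and 11 V-ATPase subunits. The 7 letters CACGTGA, which include the E-box CACGTG, stood in the windows of 6 of these 20, against 1160 of 27025 genes with a window (4.29%). One match per gene is shown with 10 or 11 bases on each side, in the direction of transcription, with the matched letters on either strand in capitals.
Atp6v0b: gggtcggcgcaTCACGTGcgccggtcagg
Atp6v0d1: cctactgcggTCACGTGAgacgcggtgcg
Atp6v0e: agcgcgccgaTCACGTGAgcctctgttga
Atp6v1a: tttttttaaaTCACGTGAtaggcttaacg
Ctsa: gagcaaactgTCACGTGAtgcagatgctc
Ctsd: cgcccgcgtcTCACGTGAcccgttgaggg

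On GRCm38.p6 these stretches lie at chr4:117887331-117887359 for Atp6v0b, chr8:105566050-105566078 for Atp6v0d1, chr16:44139373-44139401 for Atp6v1a and chr7:142387908-142387936 for Ctsd, all on the minus strand. Those of Atp6v0e and Ctsa lie on the plus strand at chr17:26676388-26676416 and chr2:164833750-164833778. In 5 of the 6 genes, all but Atp6v0b, the letters read TCACGTGA, with A after the E-box on both strands. That longer motif contains the shorter ones and was found in 304 of 27025 genes (1.12%). The E-box alone stood in the windows of 8 members, the further 2 being Ctsf and Ctsl, against 2187 of 27025 genes (8.09%).

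Atp6v0b carried CACGTGA in 2 places. The 250 bases before its start, at chr4:117887330-117887579 on the minus strand, are given because this gene had the smallest p of the 29 members, with both matches in capitals.
Atp6v0b: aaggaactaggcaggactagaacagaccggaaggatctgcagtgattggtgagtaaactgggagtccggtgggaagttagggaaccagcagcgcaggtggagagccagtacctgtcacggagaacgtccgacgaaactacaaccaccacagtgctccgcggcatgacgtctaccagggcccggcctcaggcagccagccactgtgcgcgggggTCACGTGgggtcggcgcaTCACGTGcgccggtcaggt

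The core motif of PU.1, a transcription factor of myeloid cells, was searched as GAGGAAGT. It stood in 2 of the 20 windows, those of the cysteine proteases Ctsc and Ctss, against 997 of 27025 genes (3.69%). Both matches read on the opposite strand.
Ctsc: gtcactaactaACTTCCTCaggccacctcg
Ctss: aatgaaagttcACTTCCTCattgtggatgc

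The Ctsc stretch lies at chr7:88277923-88277952 and the Ctss stretch at chr3:95526773-95526802, both on the plus strand. A match of letters is a description of the window and does not show a binding site.

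The comparison asked how these genes differed between cells from TP-18 and vehicle mice. At an adjusted p under 0.05, edgeR's quasi-likelihood test called 0 of 12 cathepsins and 0 of 17 V-ATPase genes, against 14 of all 12721 genes (0.110%). The smallest adjusted p was 0.152 for a V-ATPase gene and 0.304 for a cathepsin. At an unadjusted p under 0.05, 7 of 17 V-ATPase genes and 1 of 12 cathepsins were lower in TP-18 libraries and 0 of either were higher, against 8.70% of all genes lower and 7.56% higher. The 7 were Atp6v0b, Atp6v0c, Atp6v0d1, Atp6v1b2, Atp6v1d, Atp6v1f and Atp6v1h, and the cathepsin was Ctsd. DESeq2 called 2 V-ATPase genes, Atp6v0b and Atp6v1b2, and 0 cathepsins, against 2.51% of its 13522 genes called lower. Fits with limma-voom and with limma on FPKM called 0 in each family.

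The median log2 fold change, TP-18 over vehicle, was -0.29 over the V-ATPase genes and -0.25 over the cathepsins, against 0.02 over all tested genes. Values were negative for 13 of 17 V-ATPase genes and 9 of 12 cathepsins, and for 6026 of all 12721. With library totals in place of TMM, the median of all genes moved to 0.20 and those of the families to -0.11 and -0.075, so the distance to all genes stayed at -0.31 for the V-ATPase genes and about -0.28 for the cathepsins. On library totals 2 of 17 V-ATPase genes and 0 cathepsins were lower at an unadjusted p under 0.05, against 3.47% of all genes. The counts of lower genes also moved with single libraries. Without TP-18 1 they were 2 V-ATPase genes and 0 cathepsins, against 5.27% of all genes. Without TP-18 2 they were 5 V-ATPase genes and 1 cathepsin, against 982 of all 12904 genes. Without TP-18 3 they were 4 V-ATPase genes and 1 cathepsin, against 5.96%. Without vehicle 2 they were 4 V-ATPase genes and 3 cathepsins, Ctsa, Ctsf and Ctss, against 8.13% of all genes. Without vehicle 1 they were 10 V-ATPase genes and 2 cathepsins, against 10.2% of all genes. Without vehicle 3 they were 5 V-ATPase genes and 0 cathepsins, against 7.57%.

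**Figure D1:**
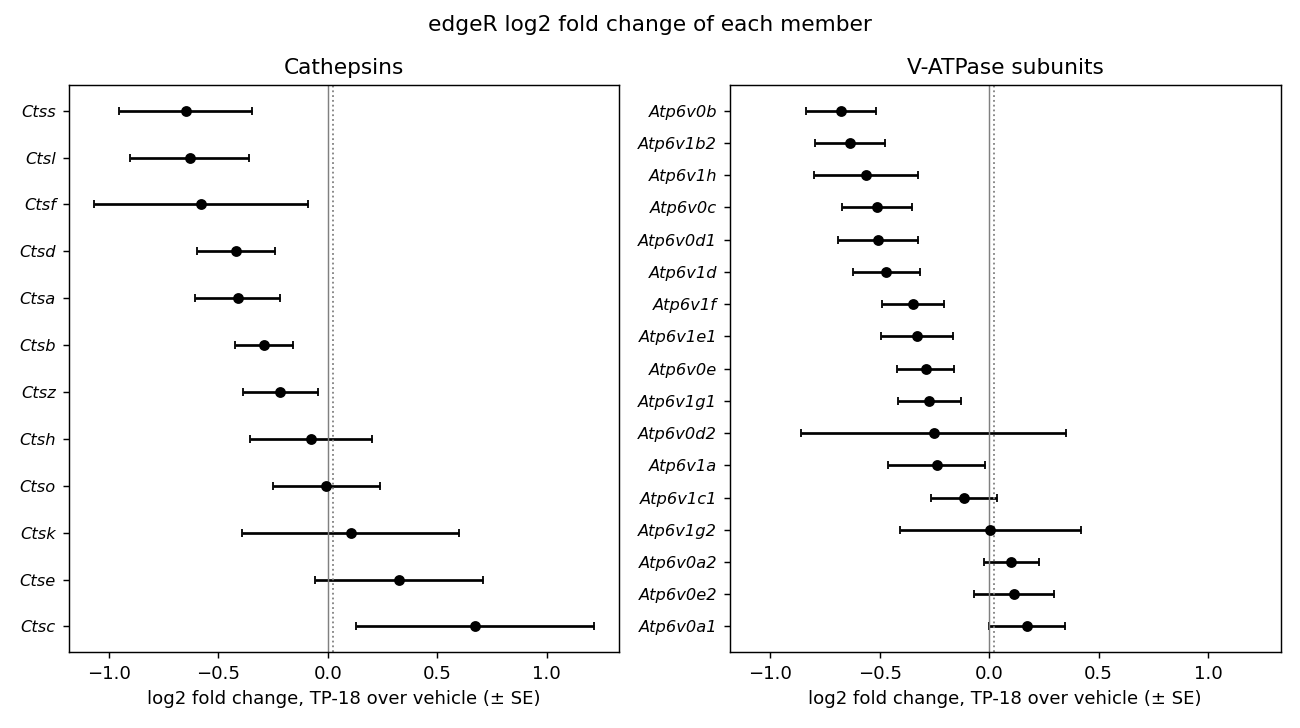
Log2 fold change of each gene, TP-18 over vehicle, from edgeR (points) with its standard error (bars), cathepsins on the left and V-ATPase subunits on the right. The dotted line marks the median of all tested genes, 0.02. The V-ATPase values run from -0.68 for Atp6v0b to 0.17 for Atp6v0a1 and the cathepsin values from -0.65 for Ctss to 0.67 for Ctsc.

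In the V1 sector, subunits A and B form the ring that binds and hydrolyses ATP. Atp6v1b2, the widely expressed B subunit (Entrez 11966, chr8:69088646-69113711, plus strand), had 228, 256 and 220.4 CPM in the TP-18 libraries, against 300.2, 381 and 413 CPM in the vehicle libraries. Every TP-18 library lay below every vehicle library. The log2 fold change was -0.63 ± 0.16 (SE), with an edgeR adjusted p = 0.176 and a DESeq2 adjusted p = 0.0205. The catalytic A subunit Atp6v1a had 174, 203 and 195 CPM in TP-18, against 169, 202 and 304 CPM in vehicle, and only vehicle 3 stood apart (log2 fold change -0.24 ± 0.22, edgeR adjusted p = 0.617).

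Subunits D and F make up the rotor. Atp6v1d had 48.9, 58.5 and 52.5 CPM in TP-18, against 61.2, 81.2 and 79.3 CPM in vehicle, without overlap between the groups. Its log2 fold change was -0.47 ± 0.15 (edgeR adjusted p = 0.229). Atp6v1f, the V-ATPase gene with the highest level per length (160 ± 8.00 FPKM in TP-18 and 180.4 ± 24.1 FPKM in vehicle, SD, n = 3 each), had 101, 90.7 and 95.1 CPM in TP-18, against 117, 139.8 and 108 CPM in vehicle. These groups did not overlap either, by a narrower margin (log2 fold change -0.35 ± 0.14, edgeR adjusted p = 0.287). A processed pseudogene matches Atp6v1f at 98.5% over 202 bases, so its count is uncertain.

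Subunits C, E, G and H form the outer stalks and the collar, and H is known from yeast to silence free V1. Atp6v1h had 71.6, 81.9 and 68.8 CPM in TP-18, against 70.7, 126 and 131 CPM in vehicle. Vehicle 1 lay inside the TP-18 range and the other vehicle libraries well above it, with a log2 fold change of -0.56 ± 0.24 (edgeR adjusted p = 0.301). The stalk subunit Atp6v1e1 and its partner Atp6v1g1 had log2 fold changes of -0.33 ± 0.16 and -0.27 ± 0.14, with edgeR adjusted p = 0.363 and 0.388. Atp6v1g1 also has processed pseudogenes at up to 99.4% identity, which makes its count uncertain. The C subunit Atp6v1c1 had 81.8 to 92.8 CPM in TP-18 and 78.7 to 108 CPM in vehicle, and the groups overlapped (log2 fold change -0.11 ± 0.15).

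In the V0 sector, the c ring turns as protons pass and subunit a forms the channel beside it. Atp6v0b, the c'' subunit of the ring (Entrez 114143, chr4:117884326-117887333, minus strand), had 85.0, 91.55 and 103 CPM in TP-18, against 123, 165 and 159.9 CPM in vehicle. The groups did not overlap, on library totals either, and the log2 fold change was -0.68 ± 0.16 (edgeR adjusted p = 0.152, DESeq2 adjusted p = 0.01565). Across the alternatives its log2 fold change ran from -0.82 to -0.49. Of its exonic bases 11.8% are shared with Gm12841 on the opposite strand, and reads there cannot be told apart, as it is not known whether counting used strand.

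Atp6v0c, which encodes the c subunit that fills most of the ring, had 57.3, 59.5 and 75.6 CPM in TP-18, against 80.3, 92.9 and 101 CPM in vehicle. The groups did not overlap (log2 fold change -0.51 ± 0.16, edgeR adjusted p = 0.219). Its count is uncertain because 2 processed pseudogenes match it at 97.2% and 99.7%. Atp6v0d1, the d subunit that joins the ring to the rotor, had 88.8, 113 and 99.5 CPM in TP-18, against 112, 151 and 167 CPM in vehicle. TP-18 2 lay just above vehicle 1, so the groups overlapped (log2 fold change -0.51 ± 0.18, edgeR adjusted p = 0.25). The small subunit Atp6v0e was even across TP-18 libraries, at 71.6 to 73.8 CPM, against 78.6 to 99.2 CPM in vehicle (log2 fold change -0.29 ± 0.13, edgeR adjusted p = 0.323).

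Over the family, 7 genes had TP-18 libraries that all lay below the vehicle libraries, namely Atp6v0b, Atp6v0c, Atp6v0e, Atp6v1b2, Atp6v1d, Atp6v1f and Atp6v1g1, against 11.7% of all genes. On library totals these were 2, Atp6v0b and Atp6v1b2, against 4.76% of all genes. Among cathepsins the counts were 2, Ctsa and Ctsb, and 0. By sector, 4 of 9 V1 genes and 3 of 8 V0 genes were lower at an unadjusted p under 0.05, against 8.70% of all genes. The median log2 fold changes were -0.33 and -0.27, against 0.02 over all tested genes. The test of a difference between the sectors was not run.

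**Figure D2:**
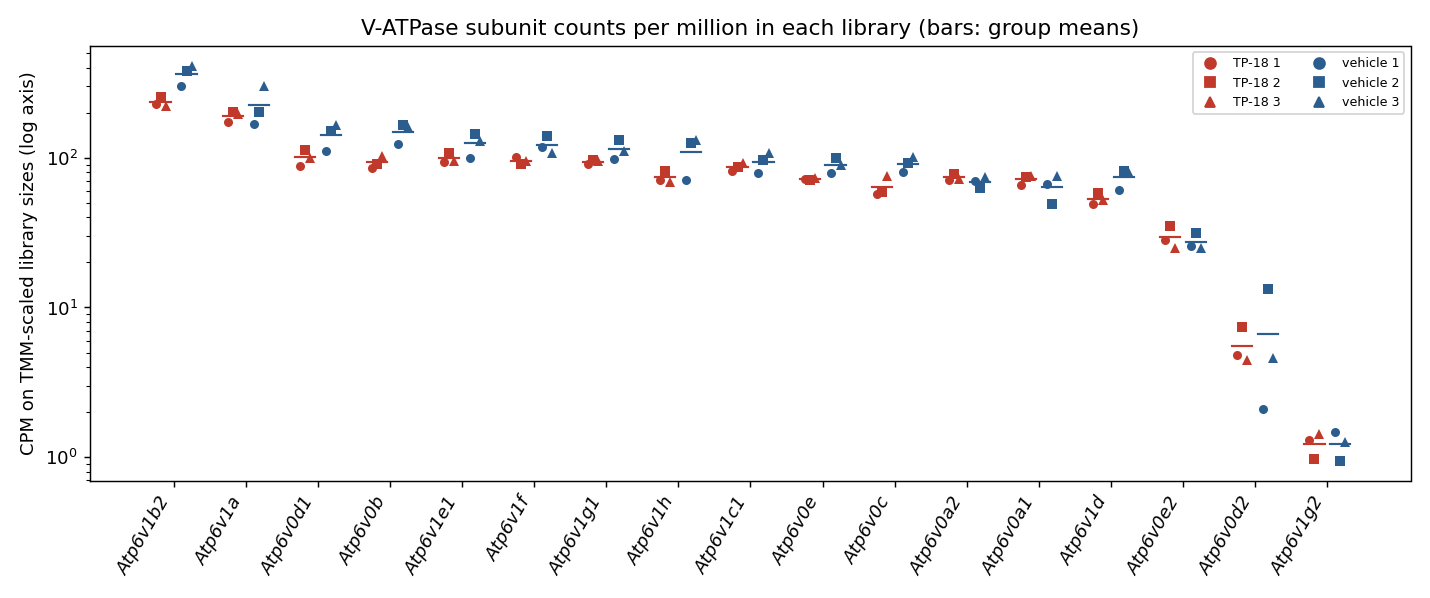
CPM on TMM-scaled library sizes (log axis) of the 17 V-ATPase genes in the TP-18 libraries (red, left in each pair) and the vehicle libraries (blue), with the group mean as a bar. For Atp6v1b2 and Atp6v0b all red points lie below all blue points, and Atp6v0d2 has the widest blue spread, 2.09 to 13.2 CPM.

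Several V0 subunits exist as paralogs that fill the same place in the pump. Atp6v0a1 had 65.9, 74.5 and 75.5 CPM in TP-18, against 67.1, 49.3 and 75.0 CPM in vehicle, and Atp6v0a2 had 71.6, 78.3 and 72.1 CPM in TP-18, against 69.6, 62.9 and 74.4 CPM in vehicle. Both pairs of groups overlapped in CPM. Their log2 fold changes were 0.17 ± 0.17 and 0.10 ± 0.12 (edgeR adjusted p = 0.645 and 0.709). On library totals every TP-18 library lay above every vehicle library for both genes, as for 23.5% of all genes, and the log2 fold changes were 0.35 and 0.28 (edgeR adjusted p = 0.291 and 0.251). The third expressed a subunit is encoded by Tcirg1, which does not carry an Atp6v name and is not counted among the 29. This a3 subunit serves lysosomes and the acid-secreting membrane of osteoclasts. Tcirg1 had 198, 180.5 and 262 CPM in TP-18, against 308, 288 and 353 CPM in vehicle (log2 fold change -0.57 ± 0.18, edgeR adjusted p = 0.22).

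Shares of the summed FPKM of a subunit put the paralogs on a scale per length. Tcirg1 made up 66.5, 62.0 and 71.0% of the a subunit FPKM in TP-18, against 75.7, 78.0 and 76.5% in vehicle, so it was the main a isoform in every library. All 3 TP-18 shares lay below all vehicle shares, with means of 66.5% ± 4.53 in TP-18 and 76.7% ± 1.18 in vehicle (SD, n = 3 each). Atp6v0a1 made up 16.3% ± 1.88 in TP-18 and 11.03% ± 1.27 in vehicle, and Atp6v0a2 made up 17.2% ± 2.71 in TP-18 and 12.3% ± 0.394 in vehicle. The second e subunit, Atp6v0e2, made up 14.98% ± 2.44 of the e subunit FPKM in TP-18 and 11.8% ± 0.862 in vehicle. These 4 shares did not overlap between the groups, and the 3 shares within the a subunit are not independent of each other. Each gave a two-sided exact permutation p of 0.10, the smallest that 3 against 3 libraries allow, and 0.15 after adjustment over the 6 shares tested, so none could pass.

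The other 2 shares overlapped. Atp6v0d2, a d paralog of osteoclasts and macrophages, made up 2.17% ± 0.390 of the d subunit FPKM in TP-18 and 1.76% ± 1.46 in vehicle (exact permutation p = 0.7). Its level was 4.80, 7.38 and 4.48 CPM in TP-18, against 2.09, 13.2 and 4.57 CPM in vehicle. Vehicle 2 held the highest value and vehicle 1 the lowest. Atp6v1g2, best known from neurons, made up 0.751% ± 0.151 of the G subunit FPKM in TP-18 and 0.639% ± 0.222 in vehicle (exact permutation p = 0.7) and was the member nearest the minimum, with 126 reads in all.

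**Figure D3:**
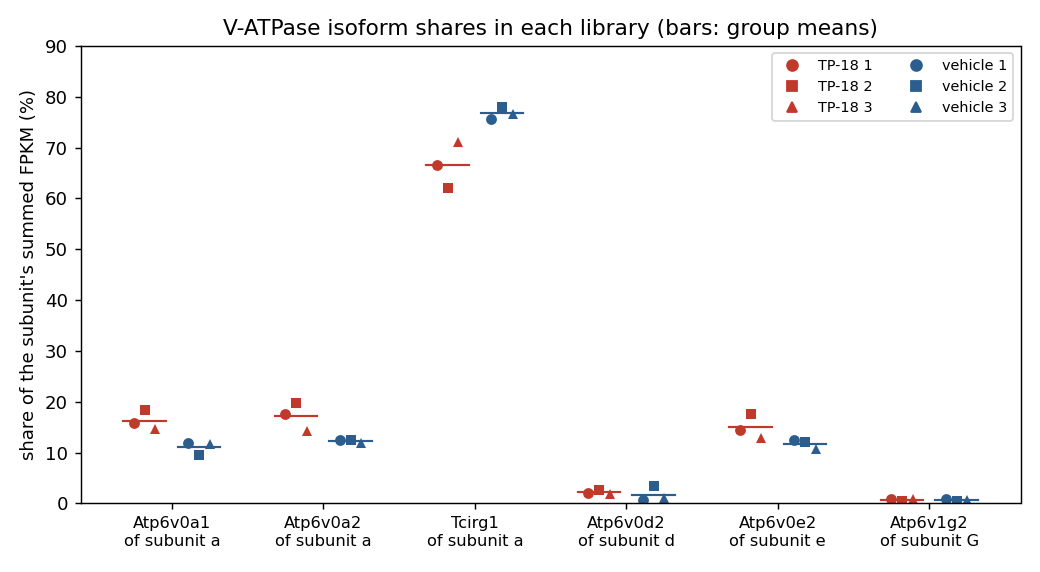
Share of each paralog in the summed FPKM of its V-ATPase subunit (percent), in TP-18 (red, left in each pair) and vehicle libraries (blue), with the group mean as a bar. Tcirg1 lies at 62.0 to 71.0% in TP-18 and 75.7 to 78.0% in vehicle libraries, while the 2 other a isoforms lie between 9.57 and 19.7%.

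The V-ATPase rows below the minimum were Atp6v1fnb, named for its place beside Atp6v1f, with 27 reads, Atp6v0a4 with 21, Atp6v1c2 with 6 and Atp6v1e2 with 2 over the 6 libraries. Atp6v0a4 and Atp6v1c2 encode isoforms best known from kidney, and Atp6v1e2 one of testis. Just inside the minimum stood Atp6v1g2. The cathepsins below it were Ctsw with 52 reads and Ctsg with 35, proteases of cytotoxic lymphocytes and of neutrophil granules, and Ctsj, a placental cathepsin, with 2.

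Other proteins assemble or regulate the pump. Of 14 tested accessory and assembly genes, Tcirg1 alone was lower and Ncoa7 alone was higher at an unadjusted p under 0.05, against 8.70% of all genes lower and 7.56% higher. Their median log2 fold change was -0.06, and 0.12 on library totals. Ncoa7, of the TLDc proteins that bind the V-ATPase, had 33.9, 33.8 and 27.8 CPM in TP-18, against 27.3, 19.4 and 17.3 CPM in vehicle (log2 fold change 0.58 ± 0.20, edgeR adjusted p = 0.243). The groups did not overlap. Atp6ap2, an accessory subunit also known as the prorenin receptor, had 142 to 172 CPM in TP-18 and 161 to 207 CPM in vehicle (log2 fold change -0.26 ± 0.15, edgeR adjusted p = 0.435).

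Among the cathepsins, 5 genes held most of the RNA. Ctsb, Ctsl, Ctss, Ctsd and Ctsz together made up 92.1 to 93.8% of the cathepsin FPKM in TP-18 and 93.2 to 95.3% in vehicle libraries. The summed FPKM of the 12 cathepsins was 4055, 3866 and 4375 in TP-18, against 4319, 4697 and 5636 in vehicle. TP-18 3 lay just above vehicle 1, so the FPKM sums, which use library totals, overlapped. In TMM-scaled CPM the sums were 8691, 8180 and 9152 in TP-18, against 9715, 11624 and 13062 in vehicle, without overlap. In raw counts the family took 0.872 to 0.978% of a TP-18 library and 0.935 to 1.21% of a vehicle library.

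The aspartic protease Ctsd, an endopeptidase that starts the breakdown of many lysosomal substrates, had the smallest p among cathepsins (Entrez 13033, chr7:142375911-142388038, minus strand). It had 1004, 942 and 821 CPM in TP-18, against 979, 1463 and 1255 CPM in vehicle. TP-18 1 lay above vehicle 1, so the groups overlapped (log2 fold change -0.42 ± 0.18, edgeR adjusted p = 0.304). Part of its exonic sequence, 808 bases, is shared with Gm49369 on the same strand, and reads there cannot be told apart. Ctse, the other aspartic cathepsin, was far lower, at 3.66 ± 1.73 FPKM in TP-18 and 2.59 ± 0.758 FPKM in vehicle (SD, n = 3 each), with a log2 fold change of 0.32 ± 0.38.

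Of the cysteine proteases, Ctsb, which cleaves as an endopeptidase and as a dipeptidyl carboxypeptidase, had the highest level per length (1265 ± 99.2 FPKM in TP-18 and 1366 ± 82.6 FPKM in vehicle, SD, n = 3 each). It had 2447, 2136 and 2472 CPM in TP-18, against 2633, 2898 and 3097 CPM in vehicle. The CPM ranges did not overlap, the ranges on library totals did, and the log2 fold change was -0.29 ± 0.13 (edgeR adjusted p = 0.329). Exons of Fdft1 on the opposite strand share 12.8% of its exonic bases.

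Ctsl, a broad endopeptidase, had 2230, 2751 and 2008 CPM in TP-18, against 2202, 4605 and 4016 CPM in vehicle. Vehicle 1 lay within the TP-18 range while the other vehicle libraries exceeded it (log2 fold change -0.63 ± 0.27, edgeR adjusted p = 0.308). Of its exonic bases 26.8% are shared with Gm47123 on the opposite strand. Ctss, the endopeptidase that trims the invariant chain of MHC class II, had 1132, 1078 and 1527 CPM in TP-18, against 1815, 1206 and 2833 CPM in vehicle (log2 fold change -0.65 ± 0.30, edgeR adjusted p = 0.339). Here the lowest vehicle library was vehicle 2 and not vehicle 1. The ratio of Ctsl to Ctss FPKM was therefore 0.798, 1.03 and 0.533 in TP-18, against 0.491, 1.54 and 0.574 in vehicle, with the widest spread inside the vehicle group.

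Ctsz, a carboxypeptidase, had 605, 455 and 682 CPM in TP-18, against 679.7, 632 and 711 CPM in vehicle (log2 fold change -0.22 ± 0.17, edgeR adjusted p = 0.566). The serine carboxypeptidase Ctsa, which also protects neuraminidase and beta-galactosidase in the lysosome, had 392.1, 342 and 417 CPM in TP-18, against 456, 422 and 654 CPM in vehicle. Its groups did not overlap (log2 fold change -0.41 ± 0.19, edgeR adjusted p = 0.340). Exons of Pltp on the opposite strand share 10.5% of its exonic bases.

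**Figure D4:**
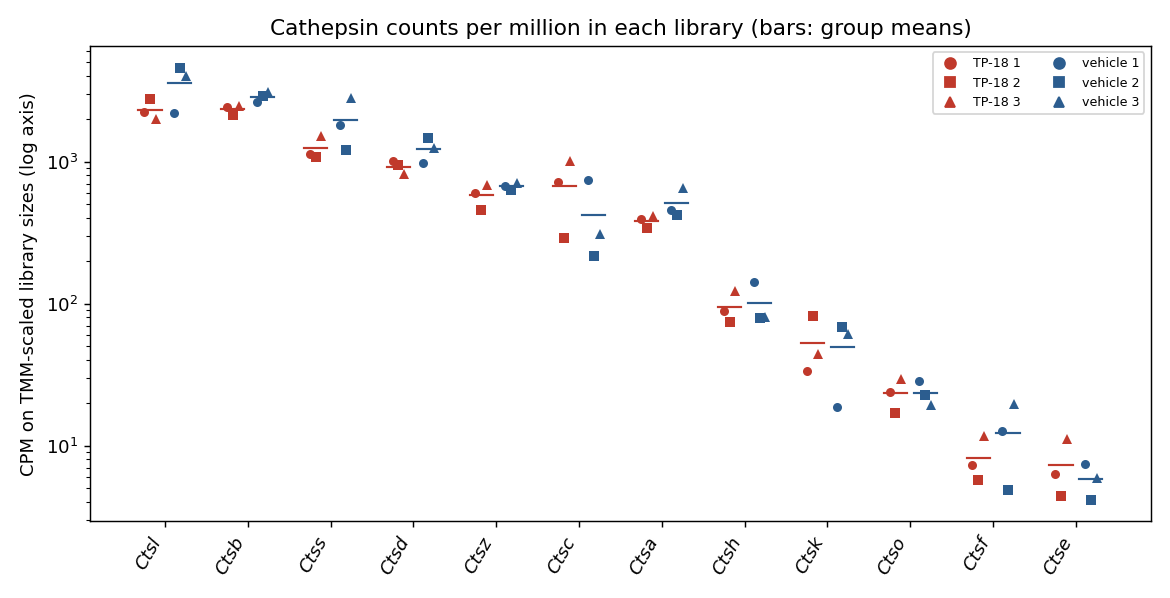
CPM on TMM-scaled library sizes (log axis) of the 12 cathepsins in the TP-18 libraries (red, left in each pair) and the vehicle libraries (blue), with the group mean as a bar. Symbols give the library, circles, squares and triangles for numbers 1 to 3. Ctsc spans 292 to 1006 CPM within TP-18 and 217 to 741 CPM within vehicle.

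The remaining cathepsins also varied within a group, as Ctsl and Ctss did, whose highest vehicle library was 2.09 and 2.35 times the lowest. Ctsc, or dipeptidyl peptidase 1, which activates granule serine proteases, had 720.5, 292 and 1006 CPM in TP-18, against 741, 217 and 309 CPM in vehicle. The 3 low values came from TP-18 2, vehicle 2 and vehicle 3 (log2 fold change 0.67 ± 0.54, edgeR adjusted p = 0.568). Ctsk, the collagenase of osteoclasts, had 33.7, 81.9 and 44.0 CPM in TP-18, against 18.6, 68.8 and 61.0 CPM in vehicle, and was lowest in vehicle 1 and highest in TP-18 2 (log2 fold change 0.11 ± 0.49). The aminopeptidase Ctsh had 89.1, 74.4 and 122 CPM in TP-18, against 142, 79.7 and 79.9 CPM in vehicle (log2 fold change -0.08 ± 0.28). Ctsf had 5.70 to 11.7 CPM in TP-18 and 4.84 to 19.5 CPM in vehicle, and Ctso had 17.0 to 29.5 CPM in TP-18 and 19.3 to 28.7 CPM in vehicle, with log2 fold changes of -0.58 ± 0.49 and -0.01 ± 0.24.

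The ratio of the highest to the lowest library within a group gives this spread for every member. Over the cathepsins its median was 1.57 within TP-18 and 1.78 within vehicle, against 1.31 and 1.43 over all genes. Over the V-ATPase genes the median was 1.17 within TP-18 and 1.37 within vehicle. Within TP-18, Ctsc (3.44), Ctse (2.49) and Ctsk (2.43) exceeded the 90th percentile of all genes (2.36) and no V-ATPase gene did. Within vehicle, Ctsf (4.03), Ctsk (3.70), Ctsc (3.41) and Atp6v0d2 (6.32) exceeded it (2.97). These ratios were not tested.

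**Figure D5:**
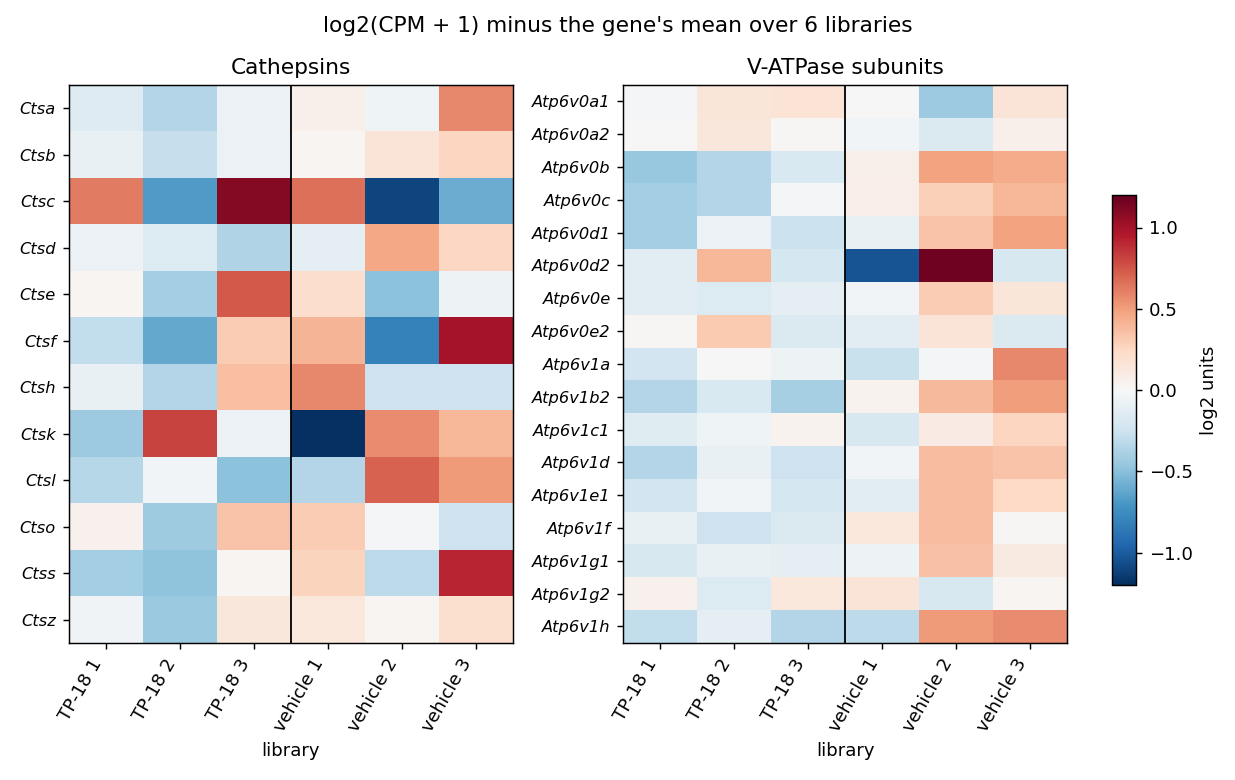
Log2(CPM + 1) of each gene minus its mean over the 6 libraries, in TP-18 (left of the line in each panel) and vehicle libraries. In the V-ATPase panel the TP-18 libraries are mostly pale or blue, with mean deviations of -0.20 to -0.05, as is vehicle 1 at -0.11, while vehicle 2 and vehicle 3 are mostly red, at 0.26 and 0.23. The cathepsin panel is not uniform within a library, as Ctsc, Ctsk and Ctsl take different signs.

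Averaged over the 17 V-ATPase genes, log2(CPM + 1) deviated from the gene mean by -0.20, -0.05 and -0.13 in TP-18, against -0.11, 0.26 and 0.23 in vehicle. On this mean vehicle 1 lay inside the range of the TP-18 libraries. The mean weights each gene alike, including Atp6v0d2 at 2.09 CPM in vehicle 1. The summed TMM-scaled CPM of the 17 genes was 1366, 1516 and 1446 in TP-18, against 1556, 1968 and 2082 in vehicle, without overlap. In raw counts these genes took 0.1439 to 0.1615% of a TP-18 library and 0.1497 to 0.1922% of a vehicle library, which overlapped. For the 12 cathepsins the deviations were -0.10, -0.29 and 0.16 in TP-18, against 0.08, -0.09 and 0.25 in vehicle, which overlapped throughout. Without vehicle 1, 10 of 17 V-ATPase genes and 2 of 12 cathepsins, Ctsd and Ctsl, were lower at an unadjusted p under 0.05, against 10.2% of all genes. In the same fit 1 cathepsin, Ctsc, was higher (log2 fold change 1.33 ± 0.49), against 8.98% of all genes.

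The members with CACGTGA in their window included 3 with an unadjusted p under 0.05, Atp6v0b, Atp6v0d1 and Ctsd, and 3 without, Atp6v0e, Atp6v1a and Ctsa. Their log2 fold changes ran from -0.68 to -0.24, with a median of -0.41. Among the 14 members with a window and no match, 3 had an unadjusted p under 0.05 and the log2 fold changes ran from -0.65 to 0.67, with a median of -0.27. The 9 members without a window included 2 with an unadjusted p under 0.05 and had a median log2 fold change of -0.25. Over all genes 8.70% were lower at an unadjusted p under 0.05. The difference between these sets was not tested.

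Cathepsins are held in check by cystatins and related inhibitors. Of 10 tested inhibitor genes, 3 were lower in TP-18 at an unadjusted p under 0.05 and 0 were higher, against 8.70% of all genes lower and 7.56% higher. Cst3, or cystatin C, a secreted inhibitor of cysteine cathepsins, had 624, 603 and 579.7 CPM in TP-18, against 847, 840.1 and 768.5 CPM in vehicle (log2 fold change -0.44 ± 0.12, edgeR adjusted p = 0.198, DESeq2 adjusted p = 0.03095). Cstb, or stefin B, an intracellular inhibitor, had 192, 203 and 188 CPM in TP-18, against 208, 385 and 301 CPM in vehicle (log2 fold change -0.62 ± 0.22, edgeR adjusted p = 0.243). Neither gene's groups overlapped in TMM-scaled CPM, but those of Cstb overlapped on library totals. The third was Ctla2b (log2 fold change -0.62 ± 0.17, edgeR adjusted p = 0.193). Over the 10 inhibitor genes, log2 fold changes were negative for 6 and positive for 4. Their median was -0.15, and 0.026 on library totals, against 0.02 and 0.20 over all genes.

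The rest of the lysosome was read from gene lists. Of 13 membrane genes, 3 were lower at an unadjusted p under 0.05 and 0 higher, against 8.70% of all genes lower, namely Lamp1, the main glycoprotein of the lysosomal membrane (847, 859 and 901 CPM in TP-18, against 1002, 1212 and 1491 CPM in vehicle), the tetraspanin Cd63 and Cd68. Their log2 fold changes were -0.51 ± 0.17, -0.48 ± 0.14 and -0.48 ± 0.18, with edgeR adjusted p-values of 0.23, 0.204 and 0.255. Of 31 other hydrolases and their activators, 4 were lower and 0 higher, against the same 8.70% of all genes lower, among them the neuraminidase Neu1, the phosphatase Acp5 and the cholesterol-binding protein Npc2, with log2 fold changes of -0.61, -1.18 and -0.38. None of the 11 genes for sorting and processing, which include Lgmn, Psap and Grn, had an unadjusted p under 0.05, and edgeR called 0 genes of these lists after adjustment. DESeq2 called 1, Cd63 (DESeq2 adjusted p = 0.0496). The median log2 fold changes were -0.15 for membrane genes, -0.09 for hydrolases and -0.17 for sorting genes, against 0.02 over all genes. On library totals these medians were 0.033, 0.088 and 0.007, against 0.20 over all genes. Values were negative for 20 of 31 hydrolases, and for 12 of them on library totals.

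Markers of cell types also differed between the groups, and their part in the values above was not tested. Of 15 macrophage markers, 4 were lower in TP-18 at an unadjusted p under 0.05 (among them Cd68, Cd14 and Apoe) and 0 were higher. Over all genes 8.70% were lower and 7.56% higher. The markers' log2 fold changes ran from -1.29 to 1.53, negative for 11 and positive for 4, with Adgre1 at -0.006. The list summed to 7894 to 10985 CPM in TP-18 and 9019 to 20819 CPM in vehicle. Of that sum, Apoe held 3119, 2692 and 3229 CPM in TP-18, against 7763, 3248 and 11102 CPM in vehicle. Of 10 fibroblast markers, 8 were higher and 0 lower, against 7.56% of all genes higher. Their summed level was 1784 to 2178 CPM in TP-18 and 885 to 1403 CPM in vehicle. Of 6 tested mast cell and basophil markers, 4 were higher and 0 lower, against 7.56% of all genes higher. That list summed to 28.4 to 67.2 CPM in TP-18 and 29.1 to 49.8 CPM in vehicle, with Mcpt4 and Cma1 at 0 in vehicle 2. Most of that sum was Gata2 (24.8 ± 7.76 CPM in TP-18 and 31.4 ± 11.2 CPM in vehicle, SD, n = 3 each). The chymase Cma1 had 3.67, 4.72 and 2.075 CPM in TP-18, against 0.246, 0 and 0.132 CPM in vehicle, and the carboxypeptidase Cpa3 had 3.40, 6.89 and 0.983 CPM in TP-18, against 0.369, 0.0629 and 0.0662 CPM in vehicle. The tryptase Tpsb2 had 6.79, 12.5 and 3.55 CPM in TP-18, against 2.77, 0.126 and 0.860 CPM in vehicle. For all 3 genes every TP-18 library lay above every vehicle library, as for 1474 of all 12721 genes. edgeR called 0 markers of these 3 lists after adjustment. DESeq2 called 2 macrophage markers lower, against 2.51% of its genes, and 4 fibroblast and 3 mast cell markers higher, against 1.18% of its genes. Among them Cd14 had 683, 639.7 and 822 CPM in TP-18, against 1575, 1725 and 1211 CPM in vehicle (DESeq2 adjusted p = 2.07e-05), and Col1a1 had 175, 168.5 and 165 CPM in TP-18, against 63.1, 59.6 and 24.7 CPM in vehicle (DESeq2 adjusted p = 5.99e-06). The DESeq2 adjusted p was 1.98e-06 for Cma1 and 0.000153 for Cpa3. The neutrophil list summed to 53.6 to 102 CPM in TP-18 and 52.7 to 129.8 CPM in vehicle, and the list for NK and T cells summed to 14.3 to 28.5 CPM in TP-18 and 18.9 to 41.2 CPM in vehicle. Of the 9 tested NK and T cell markers, Cd4 alone was higher at an unadjusted p under 0.05 and 0 were lower, against 7.56% of all genes higher. The dendritic cell list summed to 5.48 to 8.57 CPM in TP-18 and 8.81 to 14.6 CPM in vehicle, without overlap. Of its 4 tested genes, Zbtb46 alone was lower at an unadjusted p under 0.05, against 8.70% of all genes. Zbtb46 had 3.77, 2.77 and 3.06 CPM in TP-18, against 6.45, 5.98 and 9.13 CPM in vehicle (edgeR adjusted p = 0.158, DESeq2 adjusted p = 0.0170). The B cell list summed to 2.71 to 8.74 CPM in TP-18 and 1.38 to 3.93 CPM in vehicle. Of the epithelial and tumour list only Krt20 and Sox9 exceeded 10 CPM. Sox9, a transcription factor, fell to 47.7, 45.5 and 41.6 CPM in TP-18, against 136, 167.8 and 145.6 CPM in vehicle (log2 fold change -1.74 ± 0.14, edgeR adjusted p = 0.0137). It was the 1 gene of any list that edgeR called. Krt20 had 498, 507 and 239 CPM in TP-18, against 449, 521.5 and 339 CPM in vehicle.

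Within the groups, Ctsa, Ctsc, Ctse, Ctsf, Ctsh, Ctss, Ctsz and Atp6v1g2 took their lowest values in TP-18 2 and vehicle 2. Adgre1 was also lowest there, at 108 and 99.9 CPM. Ctsk, Ctsl, Atp6v0d2, Atp6v0e2, Atp6v1d, Atp6v1e1 and Atp6v1g1 were highest within their groups in TP-18 2 and vehicle 2. The 15 macrophage markers deviated on average by -0.01, -0.48 and 0.26 log2 units in TP-18, against 0.45, -0.49 and 0.27 in vehicle. With 3 libraries per group this is a description of the libraries, and its relation to the members was not tested.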

How the data were processed

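The authors deposited raw counts per gene and, in a second table, FPKM, both with gene symbols and Entrez identifiers. The submitters' processing notes list fastp, HISAT2, HTSeq and the build GRCm38, without versions. For the annotation release and for strand use the sources used here give nothing. In the authors' table FPKM equals the count divided by the library total and by a fixed length per gene. Per the labels' protocols, libraries were made from TRIzol RNA with the VAHTS Universal V6 kit.

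Counts were tested with edgeR 4.0.16 (R 4.3.3), quasi-likelihood, TP-18 against vehicle without covariates, with TMM scaling, filterByExpr (minimum count 10, minimum total 15) and Benjamini-Hochberg adjustment over 12721 genes at 0.05. The script was tested on simulated data. Standard errors were taken from the fold change and the F statistic, as |log2 fold change| over the root of F. Alternatives were RLE factors, library totals, DESeq2 1.42.0, limma-voom and limma on log2(FPKM + 1) (limma 3.58.1), other filters, a replicate block and each library left out. DESeq2 adjusted p-values follow its own independent filtering. Share tests were exact permutations. Intervals on counts were not computed, since sequencing reads without molecular identifiers are not independent molecules. All members could be named, and from each other list genes with an unadjusted p under 0.05 and up to 3 of the highest FPKM. Some genes that this rule takes are not reported here. Members and lists were chosen with earlier results of these data known. Positions come from GENCODE M21 through the Entrez identifier, for all 29 members. Near-identical transcripts were sought with BLAST (at least 95% identity over 200 bases). Figures were drawn with matplotlib 3.10.9.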

Additional observations from a re-analysis of the deposited data

How the results depend on the processing

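The cathepsins had 0 calls under every alternative run, and the V-ATPase genes 0 under all but DESeq2, which called 2 (Atp6v0b and Atp6v1b2). The smallest adjusted p over the alternatives was 0.12 for a cathepsin and 0.01565 for a V-ATPase gene. Calls over all genes moved from 14 to 4 on library totals, 499 with DESeq2, 2 with limma on log2(FPKM + 1), 27 without a filter and 3 with a replicate block, and to between 0 and 8 when a library was left out. On library totals 441 of the 2636 genes with an unadjusted p under 0.05 were lower in TP-18, against 1107 of 2069 with TMM. The V-ATPase median moved to -0.11 on library totals and -0.11 with limma on log2(FPKM + 1), where the medians of all genes were 0.20 and 0.15. Over 168 single cathepsin values 157 kept their sign and side of the threshold and 11 changed sign, in 4 genes, and over 238 V-ATPase values 223 kept both and 13 changed sign, in 5 genes. None of the genes that changed sign was called under any setting, and the cause was not tested.

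Atp6v0d2 (-0.25) came to 0.11 with limma-voom, 0.074 with limma on log2(FPKM + 1) and 0.064 with the replicate block. On library totals and with limma on log2(FPKM + 1), Atp6v1c1 (-0.11) came to 0.067 and 0.072, Ctsh (-0.08) to 0.095 and 0.12, and Ctso (-0.01) to 0.17 and 0.14. Atp6v1g2 (0.005) came to -0.005 with RLE factors and -0.008 with DESeq2. With a library left out, the log2 fold change ran from -0.70 to 0.72 for Atp6v0d2, -0.035 to 0.22 for Atp6v0e2, -0.43 to 0.023 for Atp6v1a, -0.16 to 0.145 for Atp6v1g2, -0.11 to 0.58 for Ctse, -0.30 to 0.23 for Ctsh, -0.35 to 0.40 for Ctsk and -0.20 to 0.18 for Ctso. The share difference of Atp6v0e2, 3.20 percentage points, was 5.28 in shares of counts.

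The labels give both groups replicate numbers 1 to 3, and deviations of same-numbered libraries correlated across genes at 0.161, 0.39 and -0.15, so the numbers were not taken to pair the libraries. The replicate block left 0 calls in both families. In that fit 6 V-ATPase genes and 2 cathepsins were lower in TP-18 at an unadjusted p under 0.05, against 992 of all 12721 genes.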

Other observations

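The MiT/TFE factors and the mTORC1 machinery at the lysosome were also read as a list. Of 17 tested genes, Lamtor3, a subunit of the Ragulator complex, was lower at an unadjusted p under 0.05 and 0 were higher, against 8.70% of all genes lower. Lamtor3 had 45.5, 57.7 and 49.1 CPM in TP-18, against 57.2, 74.3 and 80.8 CPM in vehicle (log2 fold change -0.48 ± 0.17, edgeR adjusted p = 0.243). The list's median log2 fold change was -0.15, and 0.028 on library totals, against 0.02 and 0.20 over all genes.

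Ctsk, Atp6v0d2, Tcirg1 and Acp5 are also part of the program of osteoclasts. Of 9 tested genes of that program, Tcirg1 and Acp5 were lower at an unadjusted p under 0.05 and 0 were higher, against 8.70% of all genes lower. The median log2 fold change was -0.17, and 0.013 on library totals. Acp5, the tartrate-resistant acid phosphatase, had 36.1, 46.1 and 44.6 CPM in TP-18, against 71.9, 45.4 and 170 CPM in vehicle, and vehicle 2 lay inside the TP-18 range (edgeR adjusted p = 0.255). Gpnmb, a lysosomal glycoprotein, had 133, 176 and 82.9 CPM in TP-18, against 92.7, 291 and 186 CPM in vehicle (edgeR adjusted p = 0.550).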
